A study of Drosophila melanogaster with 48 samples.

Results

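Wildtype-mated females of Drosophila melanogaster received very mild head trauma (vmHT) on day 3 of adult life, and their brains were compared with those of sham females on day 45, at 6 weeks post-injury. The comparison has 3 D3Inj libraries and 3 sham libraries, 6 of the 48 libraries of the series, and each library holds the RNA of 40 brains. Members were chosen by the header of the count column: headers that give F, day 45 and either sham or young. F was read as wildtype-mated females and young as D3Inj. The members are the 17869 annotated genes among the 23932 features of the tables. The other features, 5416 transposon insertions and 647 further elements, were fitted with them. Of all features, 12468 genes, 2674 transposon insertions and 144 other elements, 15286 features together, had enough counts to be tested.

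The flies were progeny of w1118 females and nSyb-GAL4 males, so sham and D3Inj flies alike carried a neuronal GAL4 driver, for which the study's methods describe no target transgene in these flies. Females were given 24 hr with wildtype males 1 day after collection and were then kept apart from males. D3Inj flies received 1 session of 15 headfirst impacts, and sham flies spent the same time in the injury vial without impacts. The same treatment was given to males, virgin females and SP0-mated females, whose mates lack sex peptide. The 3 replicates of a group are described as independent cohorts. Each pool mixes all cells of the dissected brains, so fewer cells of a type and less RNA per cell cannot be told apart.

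Sex peptide is a seminal fluid protein that males transfer at mating. It acts on sensory neurons of the female reproductive tract and switches the female to egg laying, with changes in feeding, sleep and immune gene expression. In the injured fly brain, innate immune genes such as those for antimicrobial peptides, the phagocytic receptors of glia and the JNK stress pathway are known to respond to damage. The question of the comparison was which transcripts still differed late in life in the females that the study followed for late neurodegeneration.

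Total counts were 32612570, 25377165 and 27250648 in the sham libraries and 36669105, 57795660 and 31501525 in the D3Inj libraries. The header disagreed with the deposit's record in 47 of 48 tables. roX1, an RNA of male dosage compensation, was at 5520 CPM or more under male headers and at 56.7 CPM or less under female headers, so by the header 0 libraries had the wrong sex and by the record 20. CPM are counts scaled to the TMM-adjusted size of the library. No gene is known to mark which of the 6 libraries were injured, so the group names rest on the header alone. They are in doubt: most of the genes that the study lists for this comparison divide the 6 libraries in another way, given with those genes. Every D3Inj and sham value is one of the header groups. Neuron markers (elav, nSyb, Syt1 and brp) summed to 5264 to 5432 CPM in sham and 5382 to 5670 CPM in D3Inj libraries, and glia markers (repo, alrm, Eaat1, Gs2 and moody) to 1563 to 1671 CPM and 1562 to 1587 CPM. The full list of 26 glia genes summed to 9400, 9246 and 9941 CPM in sham and 8734, 8922 and 8003 CPM in D3Inj libraries. These sums did not overlap, and a difference between them was not tested. Of the 26 genes, 11 had a positive and 15 a negative log2 fold change, with a median of -0.020. In edgeR 0 of them reached an unadjusted p under 0.05, against 4.83% of all genes. Signal of other tissues was present too. Fat body markers (Yp1, Yp2, Yp3, Lsp2, fit and apolpp) summed to 8948 to 13726 CPM in sham and 7594 to 9099 CPM in D3Inj libraries, while the summed markers of gut, muscle and ovary stayed at 36.8 CPM or less each. Over the 500 most variable features of the 6 libraries, the first principal component held 30.1% of the variance. It was led by the eggshell genes Cp38, Cp19, dec and Cp36, and sham replicate 2 and D3Inj replicate 3 scored 18.4 and 20.4 on it, against -5.23 or less in the other 4 libraries. The second component held 25.4% and set these 2 libraries apart in opposite directions, at 23.1 and -21.4.

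At 6 weeks post-injury, no feature passed an adjusted p of 0.05 between D3Inj and sham brains of wildtype-mated females in edgeR's quasi-likelihood test (0 of 15286 features, 0.00%). The smallest adjusted p was 0.991, and DESeq2 on the same 24 libraries of day 45 also called 0. At an unadjusted p under 0.05 there were 730 features (4.78%), of which 362 were higher and 368 lower after injury. Genes made up 340 of the higher and 262 of the lower features (2.73% and 2.10% of the genes tested). The groups did not overlap for 901 features that were higher in D3Inj (5.89%) and 802 that were lower (5.25%), and 50.5% of the genes had a positive log2 fold change. The typical difference was small, with a median size of 0.090 on the log2 scale over the genes.

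The precision behind this count differed with level. For 8010 of the 12468 genes (64.2%) the 95% interval of the fold change stayed within 1.5-fold in both directions, and for 9645 (77.4%) within 2-fold. Among genes above 8 log2 CPM, 925 of 933 stayed within 1.5-fold, but below 0 log2 CPM only 4 of 2314 did. In most weakly expressed genes, DptB among them, larger changes were therefore not excluded.

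**Figure D1:**
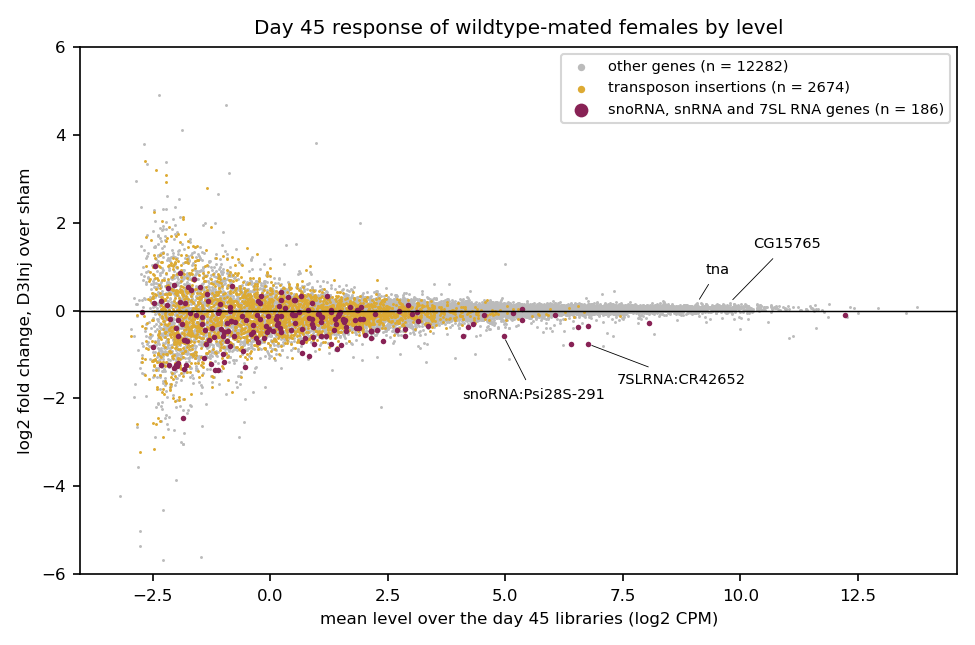
Log2 fold change of D3Inj over sham wildtype-mated females on day 45 (vertical axis) against the mean level over the day 45 libraries in log2 CPM (horizontal axis), 1 point per tested feature: 186 snoRNA, snRNA and 7SL RNA genes, 2674 transposon insertions and 12282 other genes. The spread narrows as the level rises, and the 2 7SL RNA genes stand at -0.76 and -0.77 at a level where most other genes lie near 0.

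No feature passed the threshold in the joint fit, but a few did when the 6 libraries were fitted alone, mostly noncoding RNAs that were lower after injury. 7SL RNA, the RNA of the signal recognition particle that brings ribosomes to the endoplasmic reticulum, has 2 near-identical genes close together on chromosome 3R. 7SLRNA:CR42652 (FBgn0261504, dm6, chromosome 3R, 6820131 to 6820429) had 138, 125 and 145 CPM in the sham libraries and 73.5, 87.8 and 79.0 CPM in the D3Inj libraries. 7SLRNA:CR32864 (FBgn0000003, dm6, chromosome 3R, 6822500 to 6822798) had 107, 96.4 and 115.0 CPM in the sham libraries and 56.6, 65.2 and 64.8 CPM in the D3Inj libraries. The groups did not overlap in either gene. How the authors' counting split reads between these copies is not known, so they are best read as 1 signal. Summed over both, the level was 245.0, 221 and 260 CPM in sham and 130.1, 153 and 144 CPM in D3Inj libraries. The log2 fold change was -0.76 (SE 0.23) for the first and -0.77 (SE 0.23) for the second gene, with unadjusted p of 0.00265 and 0.00280 and an adjusted p of 0.991 in edgeR.

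A call depended on which libraries set the spread. When the 6 libraries were fitted alone, edgeR called 2 features, both 7SL RNA genes, each with an adjusted p of 0.00654. The joint fit also uses the spread within the 6 other groups of day 45. In 5 of these the range of summed 7SL RNA over 3 libraries was wider than the 38.4 CPM of wildtype-mated sham, at 65.0 to 125 CPM, and in male sham it was 29.7 CPM. DESeq2 on the 6 libraries alone called 8 features, all lower after injury. Beside both 7SL RNA genes they were snoRNA:Psi28S-291, snoRNA:Tudor-SN-a, snoRNA:CG32479-b, snRNA:U11, RNaseP:RNA and Nplp2, so 7 of 8 were noncoding. These features are named here because this alternative called them, after their values were seen.

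Small nucleolar RNAs guide the chemical modification of ribosomal and spliceosomal RNA. snoRNA:Psi28S-291, of the class that guides pseudouridylation, had 44.5, 40.9 and 41.2 CPM in the sham libraries and 28.7, 25.1 and 31.0 CPM in the D3Inj libraries, a log2 fold change of -0.58 (SE 0.19). snoRNA:Tudor-SN-a had 120.3, 105 and 109.8 CPM in the sham libraries and 87.8, 89.0 and 82.5 CPM in the D3Inj libraries, a log2 fold change of -0.37 (SE 0.14). snoRNA:CG32479-b had 22.03, 20.6 and 20.9 CPM in the sham libraries and 14.5, 11.6 and 16.5 CPM in the D3Inj libraries, a log2 fold change of -0.58 (SE 0.21). In all 3 the groups were separate. On the 6 libraries alone their adjusted p were 1.41e-06, 0.000124 and 0.0103 in DESeq2, but 0.127, 0.222 and 0.810 in edgeR. In the joint edgeR fit the adjusted p of each was 0.991. RNaseP:RNA, the RNA of the enzyme that removes the leader of tRNA precursors, was far more abundant, with 1705, 1554 and 1631 CPM in the sham libraries and 1437, 1334 and 1303 CPM in the D3Inj libraries. snRNA:U11, a part of the minor spliceosome, had 131, 125 and 118 CPM in the sham libraries and 95.6, 90.7 and 107 CPM in the D3Inj libraries. Their log2 fold changes were -0.26 (SE 0.12) and -0.35 (SE 0.19), and here too every D3Inj library lay below every sham library. Their unadjusted p were 0.0412 and 0.0700 in the joint edgeR fit. On the 6 libraries alone their adjusted p were 0.000993 and 0.00122 in DESeq2, but 0.287 and 0.529 in edgeR.

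The direction was shared by much of the class. Of 165 snoRNA genes tested, 34 had a positive and 131 a negative log2 fold change, with a median of -0.25 against -0.0066 over all features. An unadjusted p under 0.05 was reached by 25 of them, all lower, and by 0 higher (background 2.41% lower and 2.37% higher over all features). The 3 D3Inj libraries lay below the 3 sham libraries for 38 of the 165 and above them for 5. Over all features, 5.25% lay below and 5.89% above in this way. Summed over the class, the level was 1105, 1028 and 995 CPM in sham and 953, 816 and 838 CPM in D3Inj libraries, which did not overlap. snRNA genes, which encode the RNAs of the spliceosome, went the same way in 14 of 19, with a median of -0.35, but 1 of 19 reached an unadjusted p under 0.05 and their summed level overlapped between the groups (4851 to 5841 CPM in sham and 4744 to 5431 CPM in D3Inj). Genes of tRNAs did not share this: 40 of 82 had a positive and 42 a negative value, with a median of -0.041 and 3 higher and 0 lower at an unadjusted p under 0.05.

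**Figure D2:**
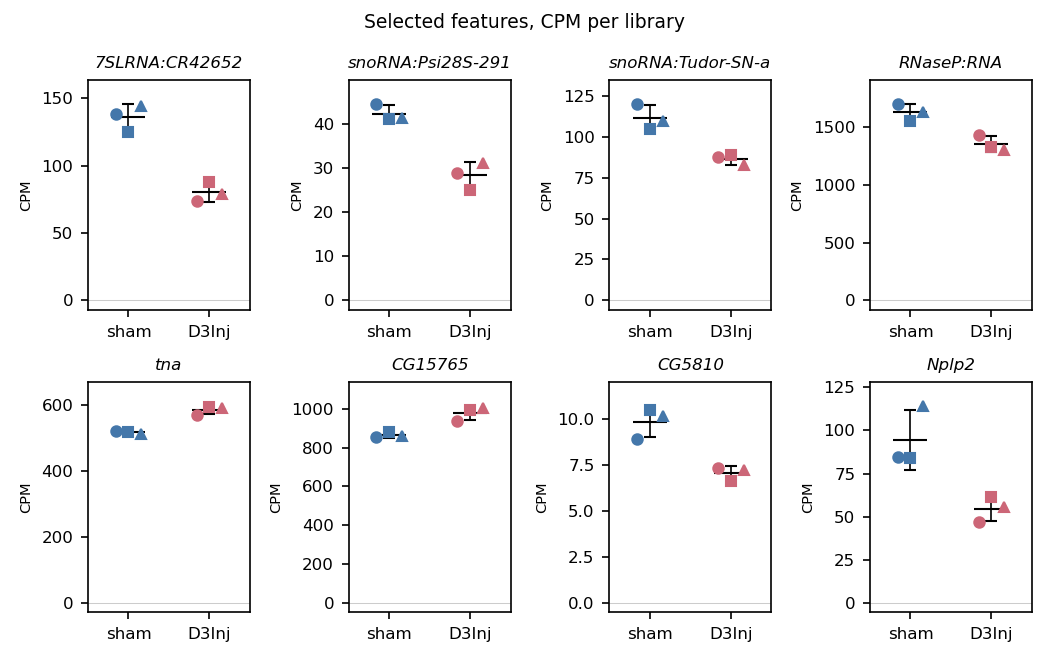
CPM of 8 features in each library of wildtype-mated females on day 45, sham (blue) and D3Inj (red), with replicates 1, 2 and 3 as circle, square and triangle and a bar for the mean and SD of 3 libraries. The groups do not overlap in any panel, and tna and CG15765 differ by less relative to their level than the noncoding RNAs do.

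The same RNAs were then read in the other flies. The median log2 fold change of the 165 snoRNA genes was 0.063 in males, -0.075 in virgin females and 0.054 in SP0-mated females on day 45, and 0.037 in wildtype-mated females on day 4. The difference in response reached an unadjusted p under 0.05 for 15 snoRNA genes against males, 5 against virgin females and 15 against SP0-mated females. Those comparisons reached it for 5.38%, 3.06% and 5.35% of all features, and none of these genes was called. For 7SLRNA:CR42652 the difference in log2 fold change was -0.81 (SE 0.32, unadjusted p = 0.0184, adjusted p = 0.917) against males. It was -0.71 (SE 0.32, unadjusted p = 0.0358, adjusted p = 1.000) against virgin females and -0.61 (SE 0.32, unadjusted p = 0.0694, adjusted p = 0.893) against SP0-mated females. Neither edgeR nor DESeq2 called 7SL RNA in any difference between kinds of fly.

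Transposon insertions leaned lower as well. Of 2674 tested, 1019 had a positive and 1655 a negative log2 fold change, with a median of -0.087, and 22 were higher and 101 lower at an unadjusted p under 0.05. Together these are 4.60% of the insertions, close to the 4.78% of all features (2.37% higher and 2.41% lower). The INE-1 elements, the most numerous family of the tables, gave 411 positive and 661 negative values among 1072, and the roo retrotransposon 25 and 88 among 113. Summed over all insertions, the level was 7167, 7651 and 7614 CPM in sham and 7249, 6794 and 7297 CPM in D3Inj libraries. The groups overlapped, and a difference of the sums was not tested. The insertion with the smallest p was Cr1a{}3376 (FBti0061437, dm6, chromosome 2R, 5612538 to 5614340), from a family of retrotransposons without long terminal repeats. It had 10.1, 10.8 and 10.7 CPM in the sham libraries and 7.69, 7.94 and 7.82 CPM in the D3Inj libraries, a log2 fold change of -0.43 (SE 0.10) with an unadjusted p of 4.00e-04. jockey{}1443, Tc1-2{}4330 and INE-1{}3292 were the other insertions among the 12 lower features named by the rule, at log2 fold changes of -0.82 (SE 0.21), -0.70 (SE 0.20) and -0.69 (SE 0.21). Reads of a repeat family cannot always be assigned to 1 insertion, so values of single insertions are uncertain.

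**Figure D3:**
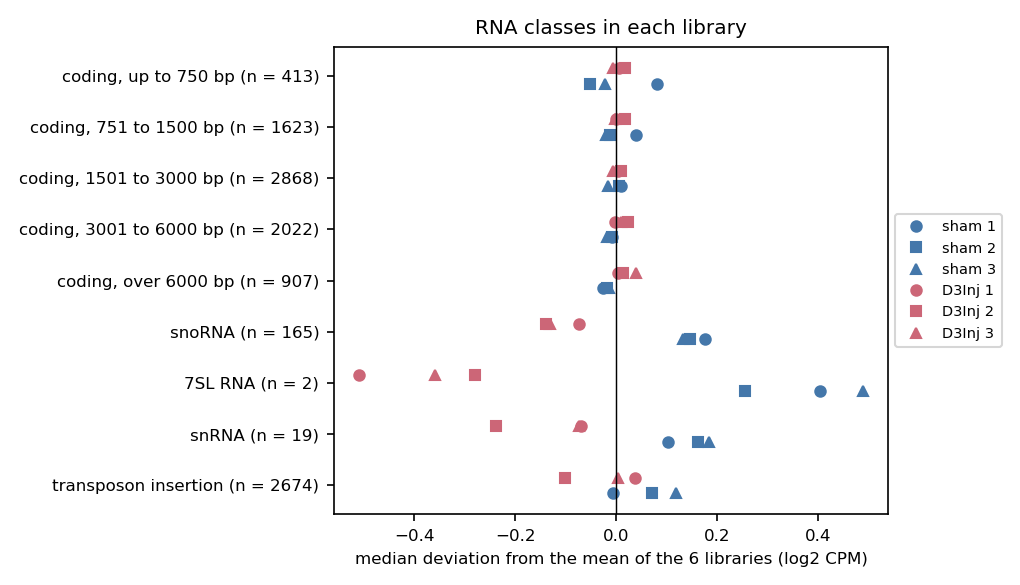
Median deviation of each library from the mean of the 6 libraries, in log2 CPM (horizontal axis), for protein-coding genes binned by exon length and for snoRNA, 7SL RNA, snRNA and transposon insertions (vertical axis), with sham in blue, D3Inj in red and replicates by shape. For snoRNA the 3 sham libraries lie at 0.13 to 0.18 and the 3 D3Inj libraries at -0.14 to -0.073, whereas for coding genes of up to 750 bases the groups overlap.

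The protein-coding gene with the smallest p was tna, an abundant gene slightly higher after injury, which encodes a SUMO ligase-like partner of chromatin remodelling (FBgn0026160, dm6, chromosome 3L, 10835528 to 10876496). It had 521, 519 and 512 CPM in the sham libraries and 570.0, 594 and 590.1 CPM in the D3Inj libraries, and the replicates of each group were close together. Its log2 fold change was 0.18 (SE 0.036), 95% interval 0.10 to 0.25, with an unadjusted p of 6.54e-05. The next was CG5810, a weakly expressed gene that was lower and is described with the lower genes. Of the 12 higher features named by the rule, CG15765 (FBgn0029814, dm6, chromosome X, 5818559 to 5840823) had 853, 882 and 861 CPM in the sham libraries and 939.5, 994 and 1006 CPM in the D3Inj libraries, a log2 fold change of 0.18 (SE 0.043). Smr, which encodes a corepressor of nuclear receptors, had 718, 701 and 715 CPM in the sham libraries and 751.4, 795 and 823 CPM in the D3Inj libraries, a log2 fold change of 0.15 (SE 0.042). ASPP, which encodes an ankyrin repeat and SH3 domain protein, had 102, 105 and 104 CPM in the sham libraries and 114.9, 119 and 128 CPM in the D3Inj libraries, a log2 fold change of 0.21 (SE 0.058). CG15772 had 26.3, 27.9 and 27.7 CPM in the sham libraries and 32.7, 35.4 and 31.7 CPM in the D3Inj libraries, a log2 fold change of 0.29 (SE 0.079). By the naming rule these groups do not overlap, so the separation is no further evidence.

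The other genes among the 12 higher features named by the rule were CG8149, CG8910, CG10918, BOD1, Sox21b, CG16711 and CG13917. Sox21b encodes a transcription factor of the SoxB group, and its log2 fold change was 0.22 (SE 0.065). CG8149 and CG10918, the weakest of these genes, stood at 0.30 (SE 0.083) and 0.67 (SE 0.20), and CG13917 at 0.099 (SE 0.030). Over the 12 genes the median log2 fold change was 0.018 in males, -0.0040 in virgin females, -0.015 in SP0-mated females and 0.0033 in wildtype-mated females on day 4. The genes were chosen for a small p in wildtype-mated females on day 45. Smaller medians elsewhere are therefore no evidence of a response particular to these females.

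The coding genes among the 12 lower features were weakly expressed. CG5810 (FBgn0038866, dm6, chromosome 3R, 21163778 to 21165161) had 8.87, 10.5 and 10.1 CPM in the sham libraries and 7.32, 6.59 and 7.20 CPM in the D3Inj libraries, a log2 fold change of -0.48 (SE 0.12) with an unadjusted p of 3.33e-04. Ugt317A1, a UDP-glycosyltransferase gene of detoxification, had 8.23, 11.7 and 10.1 CPM in the sham libraries and 8.05, 6.71 and 6.78 CPM in the D3Inj libraries, a log2 fold change of -0.48 (SE 0.14). Oscillin, whose product isomerizes glucosamine 6-phosphate, had 15.8, 16.9 and 15.9 CPM in the sham libraries and 12.2, 13.8 and 11.3 CPM in the D3Inj libraries, a log2 fold change of -0.37 (SE 0.11). All 3 had their D3Inj libraries below their sham libraries, as the rule requires. Adat1, which encodes an adenosine deaminase of tRNA, had a log2 fold change of -0.39 (SE 0.12), CG40472 of -0.54 (SE 0.16) and CG13667 of -0.37 (SE 0.11). Over the 12 lower features the median log2 fold change was 0.059 in males, 0.0069 in virgin females and -0.099 in SP0-mated females. The limit given for the higher features holds for these medians too.

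The study listed 8 genes for these females at 6 weeks post-injury, and it chose them on these samples. Under the header labels none of the 8 reached an unadjusted p under 0.05, and the groups overlapped in every one. In 7 of the 8, all but PPO2, sham replicates 1 and 3 and D3Inj replicate 1 lay together on one side of sham replicate 2 and D3Inj replicates 2 and 3. In 6 of these 7 the first 3 libraries were the higher ones, and in Miox the lower ones. This order was noticed after the values were seen and was not tested. Whether the headers name the groups that the study compared could not be settled from the files, and this limits what every difference between D3Inj and sham libraries means. Mtk, which encodes the antimicrobial peptide Metchnikowin, had 2.04, 0.825 and 1.56 CPM in the sham libraries and 2.30, 0.810 and 0.581 CPM in the D3Inj libraries. DptB, the gene of the antimicrobial peptide Diptericin B, had 0.122, 0 and 0.618 CPM in the sham libraries and 1.19, 0 and 0 CPM in the D3Inj libraries. These are 67, 21 and 43 counts against 85, 46 and 18 for Mtk, and 4, 0 and 17 against 44, 0 and 0 for DptB. DptB was at the edge of detection, and 1 library held all its counts after injury. Mtk was low but counted in every library. The log2 fold change was -0.28 (SE 0.49) for Mtk and 0.64 (SE 1.60) for DptB, and the 95% intervals were -1.29 to 0.73 and -2.66 to 3.95. The sign of Mtk turned without sham replicate 1 (0.031) or without D3Inj replicate 3 (0.033), and without D3Inj replicate 1 the D3Inj group held no DptB count.

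PPO2, the prophenoloxidase gene of crystal cells that serves melanization, had 40.5, 58.3 and 34.6 CPM in the sham libraries and 36.7, 38.4 and 52.2 CPM in the D3Inj libraries, with sham replicate 2 and D3Inj replicate 3 highest. Those are the same 2 libraries that scored highest on the component led by eggshell genes, and the part of that signal in PPO2 was not tested. Its log2 fold change was -0.068 (SE 0.16), and it turned positive without sham replicate 2 (0.17) or without D3Inj replicate 1 (0.026). Hsp83, which encodes the chaperone Hsp90, had 839, 749 and 771 CPM in the sham libraries and 795, 702 and 603 CPM in the D3Inj libraries, a log2 fold change of -0.17 (SE 0.15). Miox, the gene of myo-inositol oxygenase, had 154, 198 and 128 CPM in the sham libraries and 120.4, 174 and 169.8 CPM in the D3Inj libraries, a log2 fold change of -0.048 (SE 0.16). The lowest of the 6 Miox values was that of D3Inj replicate 1 and the highest that of sham replicate 2, and without either library the sign turned (0.11 and 0.13). Cyp4g15, a cytochrome P450 gene, had 175, 135 and 162 CPM in the sham libraries and 162, 136 and 144 CPM in the D3Inj libraries, a log2 fold change of -0.099 (SE 0.091). CG3308 and ltl stood at -0.18 (SE 0.16) and -0.19 (SE 0.15), lowest within each group in replicate 2 in both genes. Of the 8 genes, 7 had a negative log2 fold change, and the list's median was -0.13. The study reported lower Mtk and DptB and a higher level of the prophenoloxidase gene after injury. Under the header labels the signs of DptB (0.64, SE 1.60) and PPO2 (-0.068, SE 0.16) were opposite to these directions. The sign of Mtk (-0.28, SE 0.49) was the same. Each of these signs turned when a single library was left out, as given above.

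**Figure D4:**
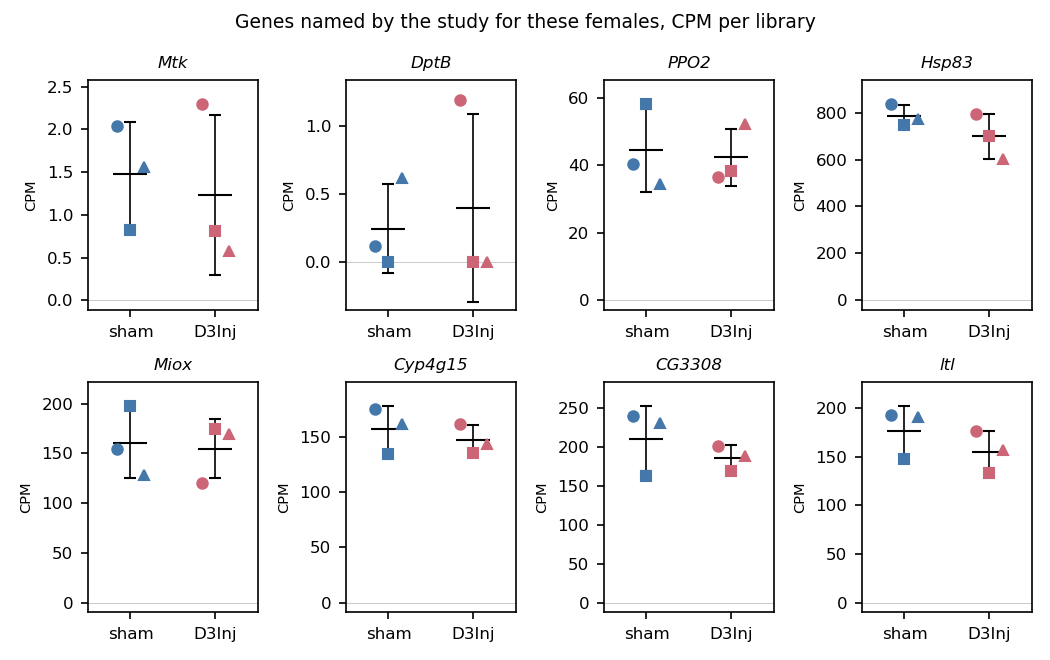
CPM of the 8 genes the study lists for wildtype-mated females at 6 weeks post-injury, per library, sham (blue) and D3Inj (red), with replicates 1, 2 and 3 as circle, square and triangle and a bar for the mean and SD of 3 libraries. The groups overlap in every panel, and DptB has counts in 1 of 3 D3Inj libraries and 2 of 3 sham libraries.

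Among innate immune genes none was called, and the lists differed in direction. Of 15 antimicrobial peptide genes tested, 9 had a positive and 6 a negative log2 fold change, with a median of 0.080, and 0 reached an unadjusted p under 0.05 in edgeR, against 4.83% of all genes. Summed over the list, the level was 12.01, 10.8 and 12.9 CPM in sham and 17.7, 11.2 and 8.33 CPM in D3Inj libraries, so D3Inj held both the highest and the lowest value. In males the median of the same genes was -1.53, and 8 of the 15 reached an unadjusted p under 0.05 for the difference between wildtype-mated females and males (5.16% of all genes did). For DptB that difference was 7.05 (SE 2.49, unadjusted p = 0.00936, adjusted p = 0.917), which was not called. The bomanin and daisho genes, short peptides induced by Toll, had 3 positive and 12 negative values with a median of -0.37, so most leaned lower, and 0 of 15 reached an unadjusted p under 0.05. Their summed level was 114, 69.9 and 153 CPM in sham and 81.8, 105 and 95.2 CPM in D3Inj libraries, which lay between the sham values.

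The signalling genes upstream of these peptides were more evenly divided. Of 37 genes of the Imd and Toll pathways, 16 were positive and 21 negative, and Tak1 was the 1 gene at an unadjusted p under 0.05 (2.70% of the list, against 4.83% of all genes). Tak1, the kinase that links Imd signalling to JNK, had 101, 96.6 and 95.4 CPM in the sham libraries and 100.1, 104 and 109.8 CPM in the D3Inj libraries, a log2 fold change of 0.10 (SE 0.047). Among 24 genes of hemocytes and melanization, 6 were positive and 18 negative, and lectin-24A and Tep2 were lower at an unadjusted p under 0.05 (8.33% of the list, against 2.10% of all genes lower and 2.73% higher). Tep2, which encodes a thioester protein of the opsonin type, had 127, 143 and 153 CPM in the sham libraries and 123, 117 and 113 CPM in the D3Inj libraries, a log2 fold change of -0.26 (SE 0.10). lectin-24A, a C-type lectin gene, had 0.366, 0.511 and 0.327 CPM in the sham libraries and 0.108, 0.0880 and 0.0646 CPM in the D3Inj libraries, so little that its log2 fold change of -2.15 (SE 0.78) rests on a few counts. Hemocyte markers (Hml, NimC1, eater and He) summed to 439 to 715 CPM in sham and 488 to 563 CPM in D3Inj libraries and overlapped.

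Genes of neurons leaned slightly higher after injury, again without a call. Of 27 neuron markers, 23 had a positive and 4 a negative log2 fold change, with a median of 0.033, and of 35 genes of synaptic vesicles and active zones 28 and 7, with a median of 0.040. Neither list holds a called gene, and 2 and 3 genes reached an unadjusted p under 0.05, all higher (background 2.73% of genes). Rim, a scaffold of the presynaptic active zone, had 1204, 1281 and 1220.4 CPM in the sham libraries and 1264, 1363 and 1394 CPM in the D3Inj libraries, a log2 fold change of 0.12 (SE 0.042). Rbp, which encodes its binding partner, had 863, 829.9 and 854 CPM in the sham libraries and 858, 961 and 956 CPM in the D3Inj libraries, a log2 fold change of 0.12 (SE 0.045). Sap47, which encodes a synapse-associated protein, had 1764, 1700.4 and 1712 CPM in the sham libraries and 1765, 1946 and 1849.6 CPM in the D3Inj libraries, a log2 fold change of 0.10 (SE 0.045). In Rim and Rbp the lowest D3Inj library lay within the sham range, and in Sap47 just above it.

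Strongly expressed genes in general leaned the same way. Among protein-coding genes above 8 log2 CPM, 752 of 917 had a positive log2 fold change (82.0%, median 0.048), and 126 were higher and 1 lower at an unadjusted p under 0.05 (2.73% and 2.10% of all genes). The positive share was 69.0% at 6 to 8 log2 CPM, 51.2% at 4 to 6 and 42.5% at 2 to 4, with a median of -0.025 in the last. Medians above 8 log2 CPM were 0.0088 in males, 0.0014 in virgin females and -0.023 in SP0-mated females. Coding genes with longer exons were also positive more often, from 49.2% at up to 750 bases to 74.3% above 6000, but they were more strongly expressed as well. Within the genes above 8 log2 CPM the median was 0.030 for up to 750 bases and 0.050 for above 6000, and at 2 to 4 log2 CPM it was -0.026 and -0.035. The part of level and scaling in the values of the neuron lists was not tested.

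Orthologs of human neurodegeneration genes had 21 positive and 17 negative values among 38, with a median of 0.015. At an unadjusted p under 0.05 there were 6 higher and 1 lower, 18.4% of the list beside 4.83% of all genes, and none was called. Of 917 coding genes above 8 log2 CPM, 126 were higher at this p as well. The part of level in the list's share was not tested. Nep1, which encodes a neprilysin peptidase, had 62.6, 58.3 and 65.9 CPM in the sham libraries and 66.4, 71.0 and 72.9 CPM in the D3Inj libraries, a log2 fold change of 0.17 (SE 0.064). Appl, the fly homolog of the amyloid precursor protein gene, had 2809, 2764 and 2794 CPM in the sham libraries and 2845, 3163 and 3045 CPM in the D3Inj libraries, a log2 fold change of 0.11 (SE 0.044). park, the parkin gene of mitochondrial quality control, had 3.47, 4.36 and 4.47 CPM in the sham libraries and 5.93, 5.19 and 5.01 CPM in the D3Inj libraries, a log2 fold change of 0.39 (SE 0.16). These 3 genes had separate groups with modest steps. Cln7, which encodes a lysosomal membrane protein, was the lower member, with 5.61, 7.50 and 7.09 CPM in the sham libraries and 5.50, 4.74 and 5.01 CPM in the D3Inj libraries and a log2 fold change of -0.40 (SE 0.16). Nep2, tau and Atx2 were the other members higher at an unadjusted p under 0.05.

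In the JNK stress pathway 16 of 25 genes were positive and 9 negative, with a median of 0.050. Tak1, puc and Jra were higher at an unadjusted p under 0.05 and none was lower, 3 of 25 genes against 2.73% of all genes higher and 2.10% lower. puc, the phosphatase gene that JNK induces and that feeds back on it, had 95.2, 94.7 and 88.5 CPM in the sham libraries and 93.5, 112 and 102 CPM in the D3Inj libraries, a log2 fold change of 0.15 (SE 0.058). Jra, which encodes fly Jun, had 46.8, 43.6 and 45.4 CPM in the sham libraries and 47.0, 51.1 and 52.1 CPM in the D3Inj libraries, a log2 fold change of 0.15 (SE 0.067). The groups overlapped in puc and were narrowly separate in Jra. Of 14 inducible heat shock genes 8 were positive and 6 negative, and of 34 constitutive chaperone genes 12 and 22, with 1 and 0 at an unadjusted p under 0.05, against 4.83% of all genes.

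Fat body genes leaned lower after injury without a call. Of 22 tested, 6 had a positive and 16 a negative log2 fold change, with a median of -0.49, and 3 were lower at an unadjusted p under 0.05 (Nplp2, fit and Cyp4g1) and 0 higher, 13.6% of the list against 2.10% of all genes lower and 2.73% higher. The summed level was 9614, 14184 and 14523 CPM in sham and 8196, 9743 and 9307 CPM in D3Inj libraries, so sham replicates 2 and 3 were high and sham replicate 1 lay within the D3Inj range. Nplp2, named for a neuropeptide-like precursor and abundant in fat tissue, had 84.7, 83.8 and 114 CPM in the sham libraries and 46.7, 61.2 and 55.4 CPM in the D3Inj libraries, a log2 fold change of -0.79 (SE 0.31). DESeq2 on the 6 libraries alone called Nplp2 with an adjusted p of 0.0492, whereas edgeR on them gave 0.222. fit, a female-enriched fat body gene linked to feeding, had 32.8, 69.4 and 66.0 CPM in the sham libraries and 28.4, 29.0 and 20.8 CPM in the D3Inj libraries, a log2 fold change of -1.10 (SE 0.53). The yolk protein genes Yp1, Yp2 and Yp3 followed the sum, with Yp2 at 2103, 3852 and 3723 CPM in sham and 1718, 2410.2 and 2188 CPM in D3Inj libraries, and overlapped. The list's median was -0.39 in males, 0.040 in virgin females and 0.24 in SP0-mated females. How much fat tissue each dissected pool held was not tested.

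Photoreceptor genes leaned lower, with 9 positive and 25 negative values among 34 and a median of -0.11. Only 1 gene reached an unadjusted p under 0.05 (2.94% of the list, against 4.83% of all genes). Rh6, a rhodopsin gene of the retina, had 5.36, 1.18 and 2.84 CPM in the sham libraries and 1.17, 1.66 and 1.49 CPM in the D3Inj libraries, a log2 fold change of -1.13 (SE 0.35). Sham replicates 1 and 3 were highest, the groups overlapped, and leaving out 1 library gave -1.51 to -0.48. Transcripts of the egg chamber and gut stood apart in single libraries. yl, the yolk protein receptor gene of the oocyte, had 0.0305, 6.13 and 0.582 CPM in the sham libraries and 0, 0.335 and 0.840 CPM in the D3Inj libraries, so sham replicate 2 alone stood apart, and its log2 fold change of -2.54 (SE 1.10) became 0.36 without that library. The reproductive tract list summed to 57.7 CPM in that library and to at most 25.2 CPM in the other 5. Muc68D, a gut mucin gene, had 0.427, 0.0786 and 0.327 CPM in the sham libraries and 0.108, 0.229 and 12.2 CPM in the D3Inj libraries, and its log2 fold change of 3.81 (SE 1.45) became -0.68 without D3Inj replicate 3.

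In energy metabolism, the 15 transcripts of the mitochondrial genome all had negative values, with a median of -0.20. Only mt:ND3 reached an unadjusted p under 0.05 (6.67% of the list, against 4.83% of all genes). mt:ND3, a complex I subunit gene, had 28.2, 26.9 and 28.1 CPM in the sham libraries and 27.0, 21.2 and 17.1 CPM in the D3Inj libraries, a log2 fold change of -0.35 (SE 0.15). Since these transcripts come from common precursors, their shared sign is 1 observation. Summed, they stood at 8334, 6734 and 7847 CPM in sham and 6791, 7623 and 5980 CPM in D3Inj libraries, which overlapped. The median was 0.16 in males, -0.10 in virgin females and 0.10 in SP0-mated females. Nuclear genes of oxidative phosphorylation had 27 positive and 18 negative values among 45, with 2 higher and 2 lower at an unadjusted p under 0.05, 8.89% of the list against 4.83% of all genes. Cyt-c-p, the cytochrome c gene, had 158, 147 and 141 CPM in the sham libraries and 168, 180.3 and 162 CPM in the D3Inj libraries, a log2 fold change of 0.19 (SE 0.061), and SdhB, a complex II subunit gene, stood at 0.14 (SE 0.066). ND-B22 and UQCR-11, subunit genes of complexes I and III, stood at -0.32 (SE 0.11) and -0.24 (SE 0.10). Cytochrome P450 genes had 20 positive and 59 negative values among 79, with a median of -0.079 and 5 lower and 0 higher at an unadjusted p under 0.05, 6.33% of the list against 4.83% of all genes (2.10% lower). The 20 genes of purine and one-carbon metabolism had 4 positive and 16 negative values, a median of -0.24, and 0 at an unadjusted p under 0.05.

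**Figure D5:**
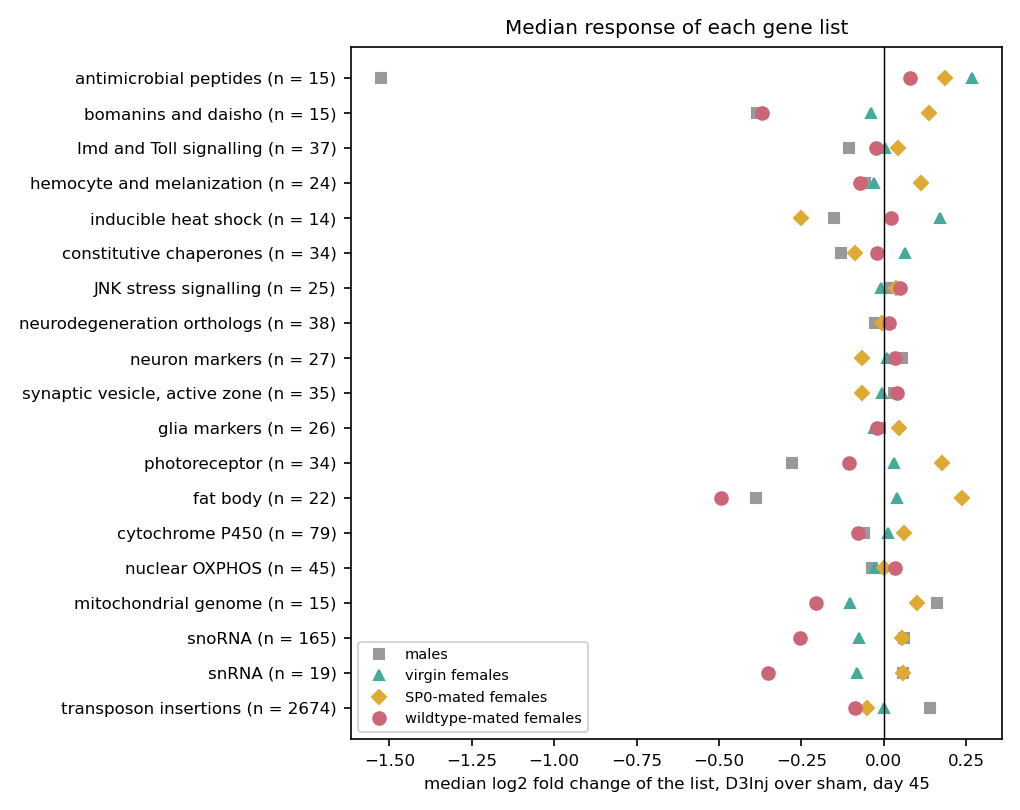
Median log2 fold change of D3Inj over sham on day 45 (horizontal axis) for 19 gene lists (vertical axis, with the number of genes tested), in wildtype-mated females (red circles), males (grey squares), virgin females (green triangles) and SP0-mated females (yellow diamonds). In wildtype-mated females the fat body, bomanin, snRNA and snoRNA lists have the lowest medians, -0.49, -0.37, -0.35 and -0.25, and the antimicrobial peptide list differs most from males.

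The late response of wildtype-mated females was then set against that of each other kind of fly, as a difference of log2 fold changes in 1 fit. edgeR called 0 features in each. At an unadjusted p under 0.05 there were 823 features against males (5.38%), 467 against virgin females (3.06%) and 818 against SP0-mated females (5.35%). The smallest p against males belonged to Cr1a{}3376, with a difference of -0.77 (SE 0.15, unadjusted p = 2.21e-05, adjusted p = 0.338). CG15772 followed with 0.53 (SE 0.11, unadjusted p = 7.58e-05, adjusted p = 0.580) and Cc2d2a, a gene of the ciliary transition zone, with 3.66 (SE 0.86, unadjusted p = 2.79e-04, adjusted p = 0.881). Cc2d2a was at 0.0914, 0.0786 and 0.0727 CPM in the sham libraries and 0.623, 0.458 and 0.517 CPM in the D3Inj libraries, so its large fold rests on few counts. DESeq2 on the same libraries called 2 features against males, Cr1a{}3376 and CG15772, each with an adjusted p of 0.0491.

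Against virgin females the smallest p belonged to Cr1a{}3376, CG5810 and CG13024. The differences were -0.63 (SE 0.15, unadjusted p = 2.73e-04, adjusted p = 1.000), -0.69 (SE 0.16, unadjusted p = 2.95e-04, adjusted p = 1.000) and -1.29 (SE 0.31, unadjusted p = 3.47e-04, adjusted p = 1.000). CG13024 had 2.90, 2.83 and 3.05 CPM in the sham libraries and 2.19, 1.85 and 1.71 CPM in the D3Inj libraries in wildtype-mated females and a log2 fold change of 0.68 in virgin females. Against SP0-mated females, the comparison that differs by the sex peptide of the mates, the smallest p belonged to lncRNA:CR45746, tna and CG9289. tna had a difference of 0.22 (SE 0.052, unadjusted p = 2.34e-04, adjusted p = 0.893), from a log2 fold change of -0.047 in SP0-mated females. lncRNA:CR45746 and CG9289 stood under 1 CPM in all 6 libraries of wildtype-mated females, and their differences were 7.14 (SE 1.62, unadjusted p = 2.25e-04, adjusted p = 0.893) and 4.46 (SE 1.04, unadjusted p = 2.43e-04, adjusted p = 0.893). In SP0-mated females their log2 fold changes were -6.71 (SE 1.37) and -2.34 (SE 0.70). That of CG9289 was 2.12 (SE 0.76) in wildtype-mated females. Without D3Inj replicate 3 the log2 fold change of lncRNA:CR45746 in wildtype-mated females turned from 0.43 (SE 0.72) to -0.44.

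Compared with the response of the same kind of female 1 day after injury, on day 4, edgeR called 0 of 15640 features, and 852 (5.45%) had an unadjusted p under 0.05. DESeq2 on the 48 libraries called 2, Mco4, a multicopper oxidase gene that had too few counts to be tested on day 45 alone, and alphaTry, a digestive trypsin gene at 0.393 CPM or less on day 45. Both were named after their values were seen. The smallest p belonged to Trm7-34, a tRNA methyltransferase gene, with a log2 fold change of -0.43 on day 4, 0.25 (SE 0.12) on day 45, and an adjusted p of 0.881 for the difference. yps, which encodes an RNA-binding Y-box protein, went from -0.21 to 0.10 (SE 0.049), the latter between 0.037 and 0.15 when 1 library was left out. mir-990 went from 0.72 to -1.28 (SE 0.43) at about 1 CPM or less. 7SLRNA:CR42652 had a log2 fold change of -0.078 on day 4, and its difference between the days was -0.68 (SE 0.35, unadjusted p = 0.0576, adjusted p = 0.921). tna had 0.0034 on day 4, with a difference of 0.17 (SE 0.056, unadjusted p = 0.00412, adjusted p = 0.881).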

How the data were processed

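RNA of dissected brains was depleted of ribosomal RNA, made into stranded libraries and sequenced in pairs. Mapping by the authors used RNA STAR on the dm6 genome and Ensembl gene models, followed by featureCounts, and the deposited tables hold unnormalized counts per feature. Versions and strand setting were not given in the sources used here. Overlapping genes, antisense genes and near-identical copies are therefore uncertain. Symbols and positions come from Ensembl BDGP6.54, which has dm6 coordinates, and 79 genes had none.

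The 24 libraries of day 45 were fitted together in edgeR 4.0.16 (R 4.3.3) with 1 coefficient per group, TMM scaling and filterByExpr. D3Inj was tested against sham by the quasi-likelihood F test, and differences between responses as contrasts (all 48 libraries for day 4). Adjusted p are Benjamini-Hochberg values over all features tested, with a threshold of 0.05, and SE was obtained by dividing the absolute log2 fold change by the root of F. Medians and CPM describe lists, with no test. The common biological coefficient of variation was 0.128. Precision rests on 21495740 to 60637359 counts per library over the series, and intervals do not cover errors of labelling. DESeq2 1.42.0, other scaling and filters, the 6 libraries alone, all 48, a replicate block, the record's labels and leaving out each library were alternatives.

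Members, lists and the naming rule were chosen with earlier results of these data known. The rule takes the study's 8 genes, called features, the 12 higher and 12 lower features with the smallest p among those of at least 1 log2 CPM without overlap, list members with an unadjusted p under 0.05 (at most 4 described per list) and the 3 smallest p of each difference. Of the listed symbols, 22 were not matched. The fit was tested on simulated counts.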

Additional observations from a re-analysis of the deposited data

How the results depend on the processing

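For the late response, 0 of 15286 features were called in the main fit. Under other settings, with 11765 to 20850 features tested, 0 were called as well. These were both normalizations, each filter, annotated genes alone, all 48 libraries, the replicate block and each library left out. The block had 837 features at an unadjusted p under 0.05. Leaving out each library gave 587 to 1027 at this p, highest without D3Inj replicate 1. edgeR on the 6 libraries alone called 2 and DESeq2 on them 8, with fewer libraries and 13668 features. DESeq2 on the same libraries called 2 features for the difference from males and 2 for the difference from day 4, where edgeR called 0, and the cause was not tested. Without sham replicate 2 and D3Inj replicate 3, an alternative chosen after seeing the data, 442 features had an unadjusted p under 0.05 and 0 were called. Deviations of each library from its group mean were correlated between same-numbered sham and D3Inj libraries. The values were 0.014, -0.055 and -0.011 in wildtype-mated females, so replicate numbers did not visibly pair these 6 libraries. In males, virgin females and SP0-mated females the values were all positive, at 0.0032 to 0.11. The block called 0 features in every comparison.

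Of the 67 features named with values, the direction held in all that could be tested under DESeq2, both scalings, each filter, the block, the 6 libraries alone and all 48. Leaving out 1 library at a time gave log2 fold changes of -6.24 to 2.47 for DptB, -0.44 to 0.96 for lncRNA:CR45746, -0.18 to 0.13 for Miox, -1.07 to 0.033 for Mtk, -0.68 to 4.39 for Muc68D, -0.24 to 0.17 for PPO2 and -3.57 to 0.36 for yl, the 7 features whose sign turned. Of those that kept their sign, 11 moved over 1.5 times: -0.34 to -0.080 for CG3308, -0.20 to -0.015 for Cyp4g15, -0.27 to -0.071 for Hsp83, -0.31 to -0.087 for ltl, -0.53 to -0.21 for mt:ND3, 0.076 to 0.21 for puc, -1.51 to -0.48 for Rh6, 0.067 to 0.14 for Sap47, 0.065 to 0.13 for Tak1, 0.16 to 0.30 for Trm7-34 and 0.037 to 0.15 for yps. Without both libraries named above, lncRNA:CR45746 stood at -0.56, Miox at 0.060 and Muc68D at -1.09. With the record's labels, which replace libraries of these groups by others, 0 features were called, 301 had an unadjusted p under 0.05, and 40 of the 67 turned: 0.033 for 7SLRNA:CR42652, 0.22 for Adat1, -0.38 for CG10918, 0.26 for CG13024, -0.037 for CG13917, -0.044 for CG16711, 0.30 for CG40472, 0.058 for CG5810, -0.066 for CG8149, -0.047 for CG8910, 0.055 for Cr1a{}3376, -0.059 for Cyt-c-p, -5.30 for DptB, 0.24 for fit, 0.54 for Hsp83, 0.084 for INE-1{}3292, 0.065 for jockey{}1443, -0.056 for Jra, 0.087 for lectin-24A, -0.036 for lncRNA:CR45746, 0.62 for mir-990, 0.075 for mt:ND3, 0.16 for ND-B22, 0.10 for Nplp2, 0.12 for Oscillin, 0.013 for PPO2, -0.056 for puc, -0.018 for Rbp, -0.026 for Rim, -0.023 for Sap47, -0.023 for SdhB, 0.20 for snoRNA:Psi28S-291, 0.15 for snoRNA:Tudor-SN-a, 0.16 for snRNA:U11, -0.057 for Sox21b, 0.15 for Tc1-2{}4330, -0.0082 for tna, -0.074 for Trm7-34, 0.011 for UQCR-11 and 0.46 for yl. Few counts, and for DptB also the spread between libraries, limit what can be said of features under 1 CPM, such as DptB and lectin-24A.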
